A study of Homo sapiens with 6 samples.

Results

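The 10 genes described here, CAT, TCERG1L, DPP6, ZNF248, TRIM4, CSMD1, TSPYL5, ZNF354C, CTSF and SPG20, were chosen by symbol as genes that are often found silenced in clones of pluripotent stem cells, and all 10 were present among the 23591 genes of the deposited expression table. They were compared between H1 cells labelled as HEB KO (3 libraries) and wild type H1 cells (3 libraries). H1 is an established human embryonic stem cell line, and HEB is the basic helix-loop-helix E protein encoded by TCF12. All libraries came from ribosome-depleted total RNA of cells grown in a defined medium on Matrigel, and no agent that differs between the groups is given in the labels. The headings of the deposited table give the 3 HEB KO libraries one shared code, and the labels do not say whether they came from 1 clone or several. The labels do not describe the replicates as separate cultures, so the p-values cover the spread of these 6 samples alone, and that spread may be technical.

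Human pluripotent stem cells acquire DNA methylation at a recurrent set of promoters during reprogramming, cloning and long culture, and a promoter methylated in 1 clone can be free of methylation in a sister clone. Such a gene can then be silent in every cell of the clone, so that clones of the same parent line can differ by an on/off state. DPP6, TCERG1L and CSMD1 are known from comparisons of methylation between induced and embryonic stem cell lines, and CAT and TRIM4 from lines with variable expression. DNA methylation was not measured in these libraries, so only transcript levels are reported.

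The transcripts differ in the promoters that such silencing acts on. The RefSeq promoter table (GRCh38.p14) had an entry for 7 of the 10 genes (SPG20 under its current symbol SPART), with none for TRIM4, CSMD1 and TSPYL5. In windows of 300 bases around the transcript start, taking for each gene the start with the most CG dinucleotides, the 27305 genes of that table had a median of 16 CG. TCERG1L had 53, a number that 0.743% of genes matched or passed. SPG20 had 43 (6.04% of genes), DPP6 39 (10.3%), ZNF248 34 (18.1%) and ZNF354C 33 (19.8%). These numbers depend on the start for 3 of the genes, since the start with the fewest CG held 6 in SPG20, 13 in DPP6 and 16 in ZNF248. CTSF with 22 (41.4%) and CAT with 20 (44.7%) lay nearer the median. CG was read on 1 strand, since it is its own reverse complement. The 250 bases before the start are shown for the 2 genes whose groups did not overlap in the expression data, TCERG1L and SPG20, and for CAT, whose level differed least between libraries, with each CG in capitals. They lie at chr10:131311722-131311971 on the minus strand (TCERG1L, 43 CG), chr13:36346395-36346644 on the minus strand (SPG20, 35 CG) and chr11:34438684-34438933 on the plus strand (CAT, 18 CG), all in GRCh38.p14.
TCERG1L: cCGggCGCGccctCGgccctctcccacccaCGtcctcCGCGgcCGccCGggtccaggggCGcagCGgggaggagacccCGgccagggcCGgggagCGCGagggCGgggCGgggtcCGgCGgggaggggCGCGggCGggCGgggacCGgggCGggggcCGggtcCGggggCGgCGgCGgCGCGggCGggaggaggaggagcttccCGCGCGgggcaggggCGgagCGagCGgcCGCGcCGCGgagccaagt
SPG20: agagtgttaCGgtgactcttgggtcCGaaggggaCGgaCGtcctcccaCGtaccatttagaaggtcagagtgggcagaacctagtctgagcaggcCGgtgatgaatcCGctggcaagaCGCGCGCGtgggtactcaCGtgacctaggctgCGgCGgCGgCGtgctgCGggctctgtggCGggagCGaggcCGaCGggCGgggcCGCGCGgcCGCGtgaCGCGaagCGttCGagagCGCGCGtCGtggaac
CAT: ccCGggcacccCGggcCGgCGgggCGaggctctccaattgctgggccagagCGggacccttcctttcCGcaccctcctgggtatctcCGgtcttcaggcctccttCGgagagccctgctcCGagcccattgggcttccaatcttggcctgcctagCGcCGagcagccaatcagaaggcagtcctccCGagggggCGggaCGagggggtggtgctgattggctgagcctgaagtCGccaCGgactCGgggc

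**Figure D1:**
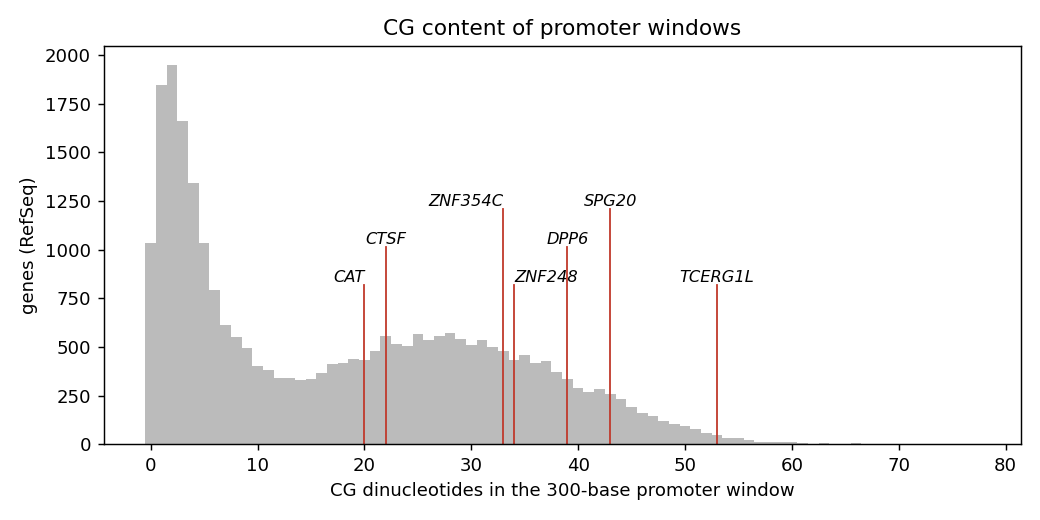
Number of RefSeq genes (y axis) by the count of CG dinucleotides in the promoter window of 300 bases (x axis), with the 7 genes that had an entry marked by red lines. TCERG1L, at 53, lies in the upper tail, and CAT and CTSF, at 20 and 22, lie nearest of the 7 to the median of 16.

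The unit of the table was taken to be FPKM, fragments per kilobase of transcript scaled to library size, from the values themselves, and the read depth of each library is unknown. TCF12 read 14.2, 6.69 and 8.28 FPKM in the HEB KO libraries, against 44.2, 55.7 and 51.0 FPKM in the wild type libraries, a difference in the direction of the labels. Pluripotent stem cell markers were present in every library, with POU5F1 between 327 and 1279 FPKM and LIN28A between 268 and 716 FPKM. Of 10 such markers none passed the test described below and 1 had an unadjusted p under 0.05, NANOG, which averaged 97.4 FPKM in HEB KO and 203 FPKM in wild type with no overlap (log2 fold change -1.08, limma adjusted p = 0.274, and 0.0075 with libraries weighted by how well they fit, a setting in which 14.5% of all tested genes passed). DNMT3B, another of these markers, was higher in HEB KO. It passed without both libraries numbered 1 (log2 fold change 1.09, limma adjusted p = 0.0436) and with library weights (limma adjusted p = 0.0139). HEB KO library 1 stood apart. Its FPKM summed to 440703, against 635114 to 714875 in the other libraries, and the share of tested genes at least 2-fold apart on the log2(FPKM + 1) scale was 20.005% and 19.3% between it and the other HEB KO libraries, whereas those differed from each other in 1.21%. For wild type library 1 the share was 6.28% and 8.60% against the others of its group. Results on the 10 genes that rest on the libraries numbered 1 are therefore also given without them, as are those on several other genes.

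None of the 10 genes showed an on/off difference between HEB KO and wild type cells. A gene was taken as on in a group when every library of the group read at least 1 FPKM, and as off when every library read below 0.1 FPKM. By this rule 8 of the 10 genes were on in at least 1 group, 6 of them in all 6 libraries, and 0 of the 10 were on in one group and off in the other. Over the whole table, 4 of the 12504 genes that were on in a group were off in the other (0.0320%), so 0 of 8 does not set the 10 genes apart from the table. The 4 genes were the microRNA gene MIR1248, on in HEB KO, and SCNN1B, TBX5 and TLX1, on in wild type. MIR1248 read 47.2, 226 and 82.3 FPKM in HEB KO and between 3.83e-16 and 5.31e-13 FPKM in wild type. The precision of these values is unknown, since no counts are given. The count for the 10 genes stayed at 0 when off was set below 0.5 FPKM and when libraries were left out. TSPYL5 alone of the 10 read below 0.1 FPKM, and it did so in all 6 libraries. Leaving libraries out could therefore not raise the count. With off below 0.5 FPKM the only further value under the limit was that of CSMD1 in HEB KO library 2, at 0.275 FPKM. Setting on at 2 FPKM makes the rule stricter, so the count of 0 could not rise there.

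Of the 10 genes, 8 passed the filter for testing, which asked for 3 or more libraries with 1 FPKM or more, and CSMD1 and TSPYL5 did not. None of the 8 passed the threshold of an adjusted p of 0.05 in limma with Benjamini-Hochberg adjustment over 12937 genes, where 0.240% of genes passed. At an unadjusted p under 0.05 there was 1 of the 8, TCERG1L, against 1300 of the 12937 genes tested. The log2 fold change, HEB KO over wild type on the log2(FPKM + 1) scale, was above 0 for 5 genes and below 0 for 3. Its median over the 8 was 0.04, beside a median of -0.04 and a range from the 5th to the 95th percentile of -0.63 to 0.68 over all genes tested. In 2 of the 8 genes, TCERG1L and SPG20, every HEB KO library lay below every wild type library, a pattern that 11.8% of all tested genes showed. In 0 of the 8 every HEB KO library lay above every wild type library, as 7.72% of tested genes did.

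**Figure D2:**
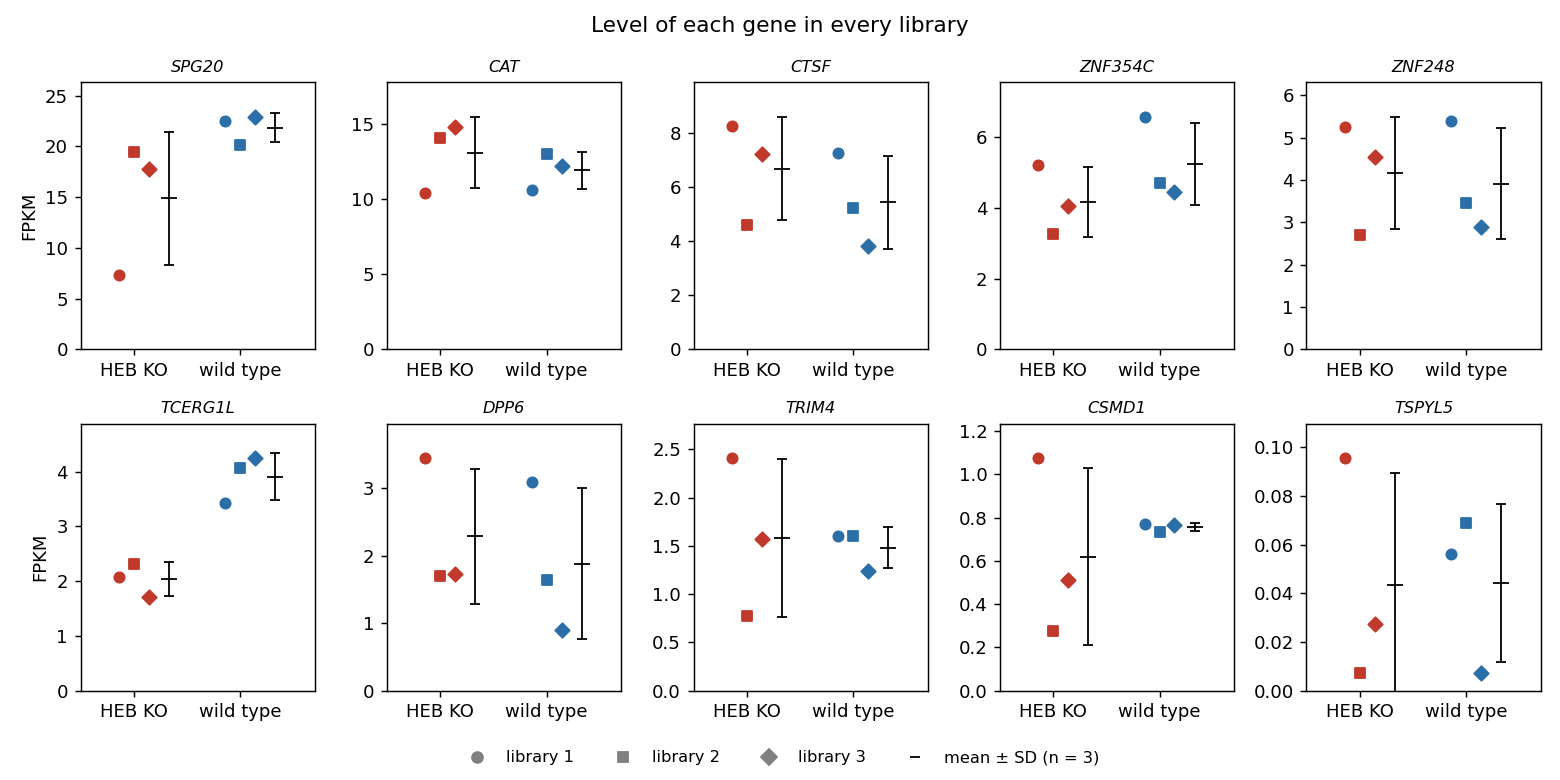
FPKM (y axis, from 0, on a separate scale for each gene) in each HEB KO library (red) and wild type library (blue), with the mean and SD of 3 libraries beside the points; for TSPYL5 the lower HEB KO bar is cut at 0. TCERG1L and SPG20 have all red points below all blue points, the other genes overlap, and TSPYL5 stays below 0.1 FPKM in all 6 libraries.

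TCERG1L, a transcription elongation regulator-like gene, gave the sharpest difference relative to its spread. It read 2.08, 2.32 and 1.71 FPKM in the HEB KO libraries, against 3.43, 4.06 and 4.24 FPKM in the wild type libraries. The groups did not overlap, and the libraries of each group lay close together, libraries 1 included. TCERG1L averaged 2.03 ± 0.307 FPKM in HEB KO and 3.91 ± 0.426 FPKM in wild type (SD, n = 3 each), 1.92-fold lower in HEB KO. Its log2 fold change was -0.70 (SE 0.19, 95% interval -1.14 to -0.25, limma adjusted p = 0.325), and the two-sided exact permutation p was 0.1, the smallest that 3 libraries against 3 allow. The difference between groups was 5.02 times the SD within groups on the log2 scale, the highest of the 10 genes. Without both libraries numbered 1 the log2 fold change was -0.78 (limma adjusted p = 0.0537). It passed only with weights estimated per library (log2 fold change -0.81, limma adjusted p = 0.00878), a setting in which 14.5% of all tested genes passed, and over the 15 alternative settings that tested it its adjusted p ran up to 0.813. The gene was lower and not off, since every HEB KO library read above 1 FPKM.

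SPG20, which encodes spartin, a protein of lipid droplets and endosomes that is lost in the hereditary spastic paraplegia Troyer syndrome, had the highest mean level of the 10. It read 7.32, 19.5 and 17.8 FPKM in the HEB KO libraries, against 22.5, 20.2 and 22.9 FPKM in the wild type libraries. HEB KO library 1 was far below all others, and HEB KO libraries 2 and 3 lay just under the lowest wild type library. SPG20 averaged 14.9 ± 6.59 FPKM in HEB KO and 21.9 ± 1.47 FPKM in wild type (SD, n = 3 each; log2 fold change -0.63, SE 0.34, 95% interval -1.43 to 0.17, limma adjusted p = 0.573). The exact permutation p was again 0.1. Without HEB KO library 1 the log2 fold change was -0.22 (limma adjusted p = 0.482), so the size of the difference rests on that library. The antisense gene SPG20OS overlaps its span and read between 0.181 and 0.396 FPKM in HEB KO and between 0.0745 and 0.159 FPKM in wild type. Since the use of strand in counting is not given in the sources used here, reads of the 2 genes cannot be told apart with certainty. The same limit holds for TCERG1L, whose span overlaps 2 RefSeq genes, TCERG1L-AS1 and LOC105378563, that had no values here. Spans of ZNF248, DPP6, CSMD1 and TSPYL5 also overlap other RefSeq genes.

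CAT encodes catalase, the peroxisomal enzyme that breaks down hydrogen peroxide, and its loss of expression is a known mark of some stem cell lines. It read 10.4, 14.1 and 14.8 FPKM in the HEB KO libraries, against 10.6, 13.0 and 12.2 FPKM in the wild type libraries. The groups overlapped, both libraries numbered 1 were the lowest of their group, and the highest library was 1.42 times the lowest, the narrowest range of the 10. CAT averaged 13.1 ± 2.36 FPKM in HEB KO and 11.9 ± 1.22 FPKM in wild type (SD, n = 3 each; log2 fold change 0.12, SE 0.21, 95% interval -0.37 to 0.60, limma adjusted p = 0.872). The gene was thus on in all 6 libraries, and a log2 difference of 1 either way lies outside the interval.

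The 2 KRAB zinc finger genes, ZNF248 and ZNF354C, belong to a class of DNA-binding repressors. ZNF248 read 5.26, 2.71 and 4.54 FPKM in the HEB KO libraries, against 5.403, 3.45 and 2.89 FPKM in the wild type libraries. ZNF354C read 5.23, 3.27 and 4.05 FPKM in the HEB KO libraries, against 6.57, 4.72 and 4.44 FPKM in the wild type libraries. Both genes were highest in the library numbered 1 of each group, and the groups overlapped. The log2 fold change was 0.07 for ZNF248 (95% interval -0.58 to 0.72, limma adjusted p = 0.951) and -0.27 for ZNF354C (95% interval -0.81 to 0.26, limma adjusted p = 0.719).

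CTSF encodes cathepsin F, a cysteine protease of the lysosome. It read 8.28, 4.59 and 7.21 FPKM in the HEB KO libraries, against 7.26, 5.22 and 3.83 FPKM in the wild type libraries. The groups overlapped (log2 fold change 0.26, 95% interval -0.39 to 0.91, limma adjusted p = 0.783). TRIM4 encodes a RING-type ubiquitin ligase of the tripartite motif family. It read 2.41, 0.772 and 1.57 FPKM in the HEB KO libraries, against 1.602, 1.61 and 1.24 FPKM in the wild type libraries. The HEB KO libraries bracketed the wild type libraries, and HEB KO library 2 was the one that read below 1 FPKM (log2 fold change 0.01, 95% interval -0.62 to 0.64, limma adjusted p = 0.992).

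DPP6 encodes a dipeptidyl peptidase-like protein without enzyme activity that serves as an auxiliary subunit of Kv4 potassium channels. It read 3.44, 1.69 and 1.73 FPKM in the HEB KO libraries, against 3.09, 1.64 and 0.895 FPKM in the wild type libraries. The libraries numbered 1 were the highest of both groups, 2.01 times the mean of libraries 2 and 3 in HEB KO and 2.44 times in wild type. The groups overlapped (log2 fold change 0.22, 95% interval -0.56 to 1.002, limma adjusted p = 0.843), and without both libraries numbered 1 the log2 fold change was 0.28 (limma adjusted p = 0.440).

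CSMD1, a large membrane protein gene whose product holds back the complement cascade, lay near the limit of 1 FPKM. It read 1.07, 0.275 and 0.51 FPKM in the HEB KO libraries, against 0.772, 0.735 and 0.767 FPKM in the wild type libraries. The wild type libraries lay close together, while HEB KO library 1 read above all of them and HEB KO libraries 2 and 3 below all of them. Without the libraries numbered 1 the mean was 0.393 FPKM in HEB KO and 0.751 FPKM in wild type. CSMD1 was not in the tested set, and with no filter on low values its log2 fold change came to -0.15 (adjusted p = 0.834 in limma).

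TSPYL5, a gene of the TSPY-like nucleosome assembly protein family whose product binds the ubiquitin protease USP7, was the one gene of the 10 that was low in every library. It read 0.0955, 0.00715 and 0.0274 FPKM in the HEB KO libraries, against 0.0563, 0.0689 and 0.0073 FPKM in the wild type libraries. By the rule used here it was off in both groups, and between 4350 and 5093 of the 23591 genes were listed at 0 in a library. Ranked among all genes of its library it lay between percentiles 21.3 and 28.2. Values this small have an unknown precision, since no counts are given, and the 13.4-fold range over the 6 libraries is not read as a difference. With no filter its log2 fold change was -0.0016 (limma adjusted p = 0.997). The wild type libraries were thus as low as the HEB KO libraries.

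**Figure D3:**
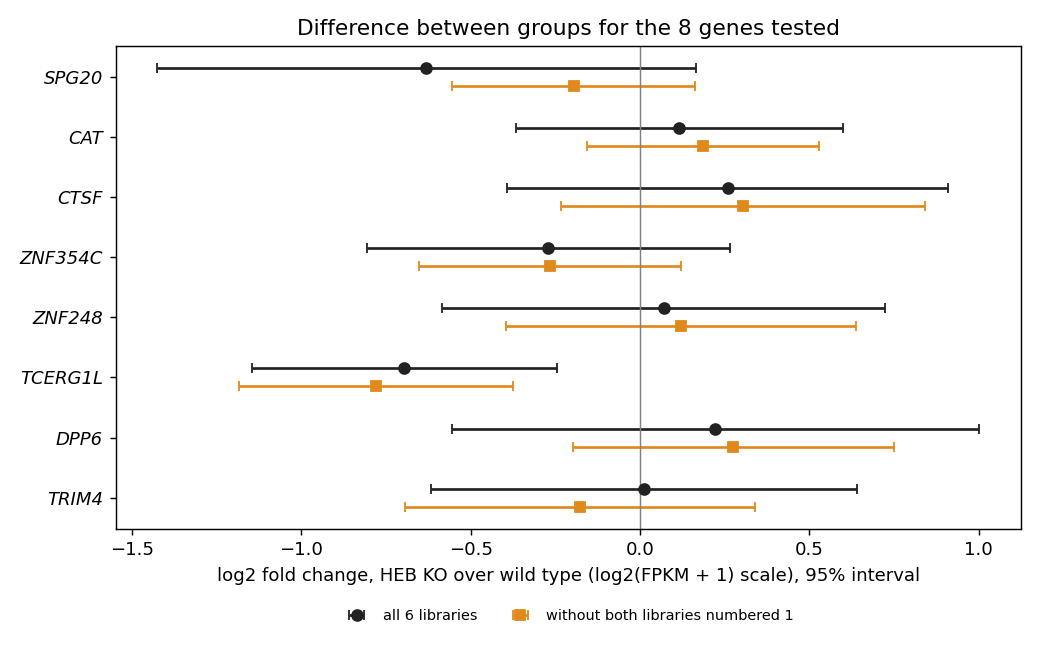
Log2 fold change, HEB KO over wild type on the log2(FPKM + 1) scale (x axis), with its 95% interval from limma, for the 8 tested genes (y axis) with all 6 libraries (black circles) and without both libraries numbered 1 (orange squares). The interval of TCERG1L lies below 0 in both fits, and every other interval includes 0; these intervals are not adjusted for the number of genes.

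Since FPKM is per length, the levels can be set in order. By the mean of all 6 libraries the order was SPG20 (18.4 FPKM), CAT (12.5), CTSF (6.06), ZNF354C (4.71), ZNF248 (4.04), TCERG1L (2.97), DPP6 (2.08), TRIM4 (1.53), CSMD1 (0.689) and TSPYL5 (0.0438). The ranges over the libraries were apart at 2 steps, between CAT and CTSF and between CSMD1 and TSPYL5. At each other step the ranges of the neighbours overlapped, although TRIM4 was above CSMD1 in 6 of 6 libraries and SPG20 above CAT in 5 of 6.

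For most of the 10 genes the spread within a group was wider than the difference between groups. The log2 difference between the groups exceeded the SD within groups for TCERG1L, SPG20 (1.23 times) and ZNF354C (1.02 times), and for the other 7 it was 0.0289 to 0.673 times that SD. HEB KO library 1 held the highest HEB KO value for 7 of the 10 genes and the lowest for 2, CAT and SPG20. Over all tested genes, that library was the highest of its group in 45.0% and the lowest in 44.9%. Wild type library 1 was the highest of its group for 5 of the 10, and in 45.8% of all tested genes. HEB KO library 1 differed at least 2-fold in FPKM from HEB KO library 2 in 5 of the 10 genes and from library 3 in 3, and HEB KO libraries 2 and 3 differed from each other by that much in 2. Each count includes TSPYL5, whose values are too small to be read as a difference. The shares of all tested genes given above were on the log2(FPKM + 1) scale, so these counts cannot be set against them. The part of library composition in the differences between libraries was not tested.

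**Figure D4:**
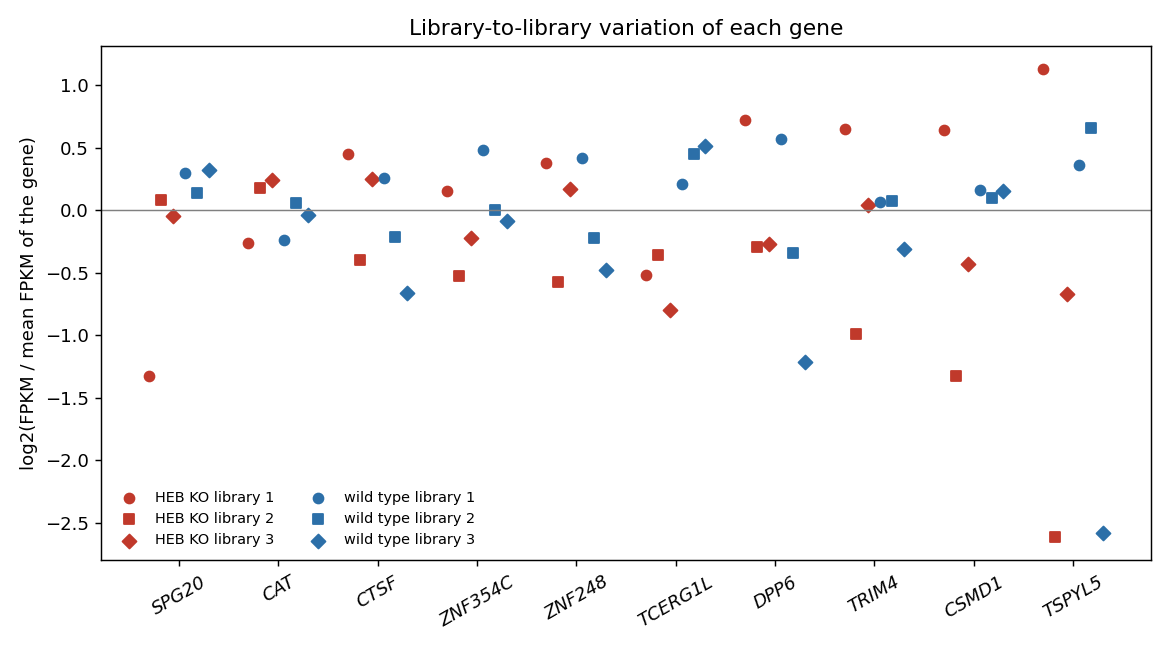
Log2 ratio of each library's FPKM to the mean FPKM of the gene over 6 libraries (y axis) for each gene (x axis), with HEB KO libraries in red and wild type libraries in blue and the library number given by the symbol. HEB KO library 1 (red circles) is the highest HEB KO library for 7 of the 10 genes and the lowest for SPG20 and CAT.

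A second list held 8 further genes known for promoter methylation that varies between pluripotent stem cell lines, all of them in the table. Of these 3 passed the filter and none passed the test in limma, with 1 at an unadjusted p under 0.05. TMEM132D, a transmembrane protein gene, read 4.85, 2.96 and 3.24 FPKM in the HEB KO libraries, against 6.99, 6.50 and 5.12 FPKM in the wild type libraries. Its groups did not overlap (log2 fold change -0.63, limma adjusted p = 0.409, and 0.0091 with library weights). FAM19A5, a secreted chemokine-like protein gene, averaged 8.90 FPKM in HEB KO and 8.396 FPKM in wild type, and CSRP1, a LIM domain protein gene, 13.7 FPKM in HEB KO and 8.64 FPKM in wild type, neither past the threshold. With library weights CSRP1 passed (log2 fold change 0.87, limma adjusted p = 0.0271). The share of 14.5% of all tested genes that passed with library weights applies to each such call here and below.

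C9orf64 showed the widest separation of that list, below the filter. It read 0.185, 0.0627 and 0.107 FPKM in the HEB KO libraries, against 0.556, 0.984 and 1.16 FPKM in the wild type libraries. The groups did not overlap, and the mean was 7.58-fold lower in HEB KO, at 0.118 ± 0.0621 FPKM, against 0.898 ± 0.309 FPKM in wild type (SD, n = 3 each). With no filter on low values its log2 fold change was -0.75 (limma adjusted p = 0.248). It did not meet the rule for an on/off difference in either group. Wild type libraries 1 and 2 read below 1 FPKM, and HEB KO libraries 1 and 3 read above 0.1 FPKM. PTPRT, TMEM132C, RBFOX1 and C22orf34 were below the filter with overlapping groups. PTPRT and TMEM132C reached 1.59 and 2.07 FPKM in HEB KO library 1 and lay at or below 0.35 FPKM in the other 5 libraries.

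Among the enzymes that set and remove DNA methylation, DNMT1, DNMT3A, DNMT3B, UHRF1, TET1 and TET3 were on in both groups, TET2 read between 0.626 and 3.51 FPKM, and DNMT3L stayed at or below 0.343 FPKM. None of the 7 tested passed in limma, with 1 at an unadjusted p under 0.05. DNMT3B, a de novo methyltransferase, averaged 528 FPKM in HEB KO and 352 FPKM in wild type, and TET1, which oxidises methylcytosine, 30.7 FPKM in HEB KO and 40.6 FPKM in wild type, both with overlapping groups. Without both libraries numbered 1 DNMT3B passed (log2 fold change 1.09, limma adjusted p = 0.0436), as did 3.71% of all tested genes in that setting, and it passed with library weights (adjusted p = 0.0139). UHRF1, which brings the maintenance methyltransferase to replicated DNA and is named here after its values were seen, averaged 11.02 FPKM in HEB KO and 5.98 FPKM in wild type (log2 fold change 0.78, limma adjusted p = 0.304, and 0.0170 with library weights). Of 6 genes of the co-repressor complex that KRAB zinc finger proteins use, none passed and none had an unadjusted p under 0.05. TRIM28 averaged 253 FPKM in HEB KO and 177 FPKM in wild type, and CBX3 125 FPKM in HEB KO and 141 FPKM in wild type, a direction that turned without both libraries numbered 1 (log2 fold change 0.12).

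None of the 10 paralogues that could be tested, of 13 in the table, passed in limma or had an unadjusted p under 0.05. The low level of TSPYL5 was not shared by TSPYL1, at 22.05 FPKM in HEB KO and 19.7 FPKM in wild type, nor by TSPYL4, at 7.78 FPKM in HEB KO and 5.34 FPKM in wild type, and TSPYL2, at 4.38 FPKM in HEB KO and 5.29 FPKM in wild type. TSPYL4 passed with library weights (limma adjusted p = 0.0247). TSPYL6 read 1.06 FPKM in HEB KO library 1 and below 0.1 FPKM elsewhere. CSMD2 read 4.80, 1.25 and 1.22 FPKM in the HEB KO libraries, against 1.41, 1.93 and 0.931 FPKM in the wild type libraries. Its log2 fold change of 0.36 turned to -0.09 without both libraries numbered 1. CSMD3 lay below 0.1 FPKM in all libraries. ZNF354A and ZNF354B averaged 9.66 and 5.44 FPKM in HEB KO, and 11.7 and 6.75 FPKM in wild type. Of the DPP6 relatives, DPP8, DPP9 and DPP10 averaged between 2.41 and 8.94 FPKM in HEB KO and between 3.39 and 10.2 FPKM in wild type, and DPP4 stayed at or below 1.73 FPKM in every library.

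Genes that share a pathway, family or disease with one of the 10 gave no call with all 6 libraries weighted equally. Of 17 other peroxide and superoxide enzymes tested, 1 had an unadjusted p under 0.05, and PRDX1 and TXN averaged 919 and 234 FPKM in HEB KO and 1096 and 314 FPKM in wild type. Both HEB KO means rest on HEB KO library 1, at 387 and 104 FPKM, and without both libraries numbered 1 the log2 fold change of PRDX1 turned from -0.42 to 0.11 and that of TXN moved from -0.56 to -0.10. Of 16 peroxisome genes 1 had an unadjusted p under 0.05, with PEX19 at 25.3 FPKM in HEB KO and 28.8 FPKM in wild type. Of 10 other cathepsin genes 2 had an unadjusted p under 0.05. CTSC read between 189 and 205 FPKM in HEB KO, against 381, 179 and 170 FPKM in the wild type libraries. Its log2 fold change of -0.19 turned to 0.16 without both libraries numbered 1. CTSD averaged 52.7 FPKM in HEB KO and 27.5 FPKM in wild type. None of these genes passed limma with all 6 libraries weighted equally. Named after their values were seen, CTSK (log2 fold change -1.24, adjusted p = 0.0213) and CTSB (-0.93, adjusted p = 0.0427) passed without both libraries numbered 1. In that setting 3.71% of all tested genes passed. With library weights CTSK, CTSB, GPX7, GPX8 and PEX10, also named after their values were seen, passed (adjusted p between 0.0040 and 0.0473). In that setting 14.5% of all tested genes passed, so these calls do not set the lists apart.

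Of 7 Kv4 channel genes that DPP6 works with, 3 stayed below 1 FPKM in every library and 3 could be tested, none with an unadjusted p under 0.05. KCND2 averaged 4.36 FPKM in both groups. KCNIP4 read 5.07, 1.25 and 1.32 FPKM in the HEB KO libraries, against 2.66, 1.16 and 1.30 FPKM in the wild type libraries, highest in both libraries numbered 1, without which its log2 fold change of 0.27 was 0.04. Of 4 complement genes tested 1 had an unadjusted p under 0.05, CD46, which averaged 72.0 FPKM in HEB KO and 113 FPKM in wild type and passed with library weights (limma adjusted p = 0.0284). CD59 averaged 14.5 FPKM in HEB KO and 19.3 FPKM in wild type. Of 9 other spastic paraplegia genes 1 had an unadjusted p under 0.05, NIPA1, a magnesium transporter gene named after its values were seen, which averaged 6.84 FPKM in HEB KO and 13.5 FPKM in wild type with no overlap (log2 fold change -0.87, limma adjusted p = 0.297). NIPA1 passed without both libraries numbered 1 (log2 fold change -1.14, adjusted p = 0.0226) and with library weights (adjusted p = 0.0019). In the same list SPG21 averaged 46.2 FPKM in HEB KO and 54.0 FPKM in wild type and SPG7 27.7 FPKM in HEB KO and 21.3 FPKM in wild type. Of USP7, MDM2 and CDKN1A none had one, and USP7 averaged 50.3 FPKM in HEB KO and 60.6 FPKM in wild type and MDM2 48.0 FPKM in HEB KO and 50.6 FPKM in wild type.

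The nearest genes on either side of each of the 10, in the RefSeq order and with an entry in the table, were then examined. Of 20 such neighbours 11 were tested, and none passed in limma or had an unadjusted p under 0.05. PPP2R2D, the neighbour of TCERG1L that was tested, read 15.8, 17.1 and 17.6 FPKM in the HEB KO libraries, against 15.4, 16.4 and 17.7 FPKM in the wild type libraries. Thus the groups of TCERG1L were apart while those of its neighbour overlapped. Beside TSPYL5, CPQ averaged 1.40 FPKM in HEB KO and 1.48 FPKM in wild type, and MTDH 14.3 FPKM in HEB KO and 22.6 FPKM in wild type, and both genes around TSPYL5 read at least 0.989 FPKM in every library. Beside CSMD1, MCPH1 averaged 12.9 FPKM in HEB KO and 14.7 FPKM in wild type, and MYOM2 was at or below 0.155 FPKM. ABTB2 (beside CAT), ACTR3B and PAXIP1 (beside DPP6), GJC3 (beside TRIM4), ZNF879 and ADAMTS2 (beside ZNF354C) and ACTN3 (beside CTSF) had log2 fold changes between -0.38 and 0.38. ELF5, CCDC87, ZNF33BP1, SPG20OS, MIR378C, MTRNR2L7, OR2AE1 and RNU6-71 stayed below 1 FPKM in all libraries.

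Over the 6 libraries, the genes whose log2(FPKM + 1) pattern was most like that of TCERG1L were TMCC3, USP53 and GRAMD3, with Pearson correlations of 0.985, 0.983 and 0.980. In all, 40 of the tested genes had a correlation above 0.95, and with 6 libraries from 2 groups a high value needs little more than groups that are apart. USP53 read 7.52, 7.66 and 7.21 FPKM in the HEB KO libraries, against 10.9, 11.5 and 12.3 FPKM in the wild type libraries. It did not pass in limma (adjusted p = 0.364).

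Markers of other cell types were examined because bulk levels of a gene cannot tell fewer cells of a type from less RNA per cell. Mesenchyme markers summed to between 65.4 and 186 FPKM in HEB KO and between 28.9 and 48.3 FPKM in wild type, with 5 of 10 tested and none past the threshold in limma (2 at an unadjusted p under 0.05). TAGLN read 32.3, 168 and 49.3 FPKM in the HEB KO libraries, against 11.0, 27.3 and 15.7 FPKM in the wild type libraries. TAGLN passed with library weights (limma adjusted p = 0.0465). COL1A2 read 46.3, 7.97 and 9.37 FPKM in the HEB KO libraries, against 20.5, 15.4 and 9.45 FPKM in the wild type libraries. Its log2 fold change of 0.09 turned to -0.44 without both libraries numbered 1. The remaining tested markers, COL1A1, ACTA2 and PDGFRB, named after their values were seen, had log2 fold changes of 2.05, 1.14 and 0.59. Without both libraries numbered 1 these were 0.94, 0.53 and 0.45. None of them passed in limma in that setting or with library weights. DCN was listed at 0 in every library and LUM in all but HEB KO library 1. Trophoblast markers summed to between 1.46 and 4.73 FPKM in HEB KO and between 0.715 and 1.121 FPKM in wild type, with KRT7 at 1.96 FPKM in HEB KO and 0.815 FPKM in wild type (adjusted p = 0.0237 with library weights), GATA3 at 2.47 FPKM in HEB KO library 1 and below 0.1 FPKM in the others, and CGB5 listed at 0 throughout. Neural markers summed to between 58.2 and 134 FPKM in HEB KO and between 72.1 and 95.9 FPKM in wild type, nearly all of it from TUBB3 and NES. Endoderm markers summed to at most 2.11 FPKM in HEB KO and 0.429 FPKM in wild type, with AFP the highest and GATA4 second. Their part in the levels of the 10 genes was not tested.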

How the data were processed

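Groups and replicate numbers came from the sample titles. The authors deposited 1 normalized value per gene and library. The labels name no unit, and the deposited values were taken as FPKM from the values themselves. Per the submitters' processing notes, alignment to hg19 used TopHat2 (version 2.1.0) together with Bowtie2 (version 2.2.6). How expression was quantified, with which annotation and use of strand, is not stated there. Of 23619 entries, 28 with a date for a symbol were left out. The test was limma 3.58.1 (R 4.3.3) on log2(FPKM + 1) with a mean-dependent prior, over 12937 genes that reached 1 FPKM in 3 or more libraries, with Benjamini-Hochberg adjustment at 0.05. This scale understates the change of low genes, and folds in the text are ratios of mean FPKM. Exact permutation tests used SciPy 1.17.1. FPKM holds no counts, so no count model was fitted and depth is unknown. The fit was tested on simulated data. RefSeq GRCh38.p14 tables gave gene order and promoter sequences (22524 symbols matched). The 10 genes, the lists and the rules were chosen with earlier results of these data known. Named by rule were all 10 genes, all genes of the second silencing list and the paralogues, the 2 highest genes of each other list, the neighbours and the 3 genes most like the one of the largest fold change. A few genes that the rule names are not reported here.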

Additional observations from a re-analysis of the deposited data

How the results depend on the processing

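Of all genes tested 31 changed, against 11 with no filter, 18 with a filter of 5 FPKM, 480 without both libraries numbered 1, 1874 when libraries were weighted and 10 with the replicate block. Leaving out 1 library gave 7 to 76, namely 76, 9 and 7 without HEB KO libraries 1, 2 and 3, and 7, 9 and 10 without wild type libraries 1, 2 and 3. Among the 10 genes the count past the threshold was 0, and 1 with library weights (TCERG1L, log2 fold change -0.81). Under the replicate block TCERG1L had an adjusted p of 0.263, and no call among the 10 genes changed. Same-numbered libraries deviated from their group means with correlations of 0.262, -0.0399 and 0.269, so the numbers were not taken to pair the samples. The on/off count over the table was 4. It was 24 with off below 0.5 FPKM, 2 with on at 2 FPKM and 16 without both libraries numbered 1. With 1 library left out it was 6 to 11. Among the 10 genes it was 0 in each, which with on at 2 FPKM or with libraries left out could not have come out otherwise. Off below 0.5 FPKM added only the value of CSMD1 in HEB KO library 2. Of 123 fold changes of the tested genes in the 16 other settings, 110 kept their direction and side of the threshold and 12 took the other sign, in DPP6, ZNF248 and TRIM4. With 1 library left out, the log2 fold change ran from -0.042 to 0.51 for DPP6, from -0.086 to 0.29 for ZNF248 and from -0.21 to 0.26 for TRIM4. It was -0.011 for ZNF248 and -0.068 for TRIM4 under quantile normalization, and for TRIM4 also -0.028 at a pseudocount of 0.1, -0.12 with library weights and -0.18 without both libraries numbered 1. The cause of these shifts was not tested. Without counts, the precision of low values such as those of TSPYL5 and CSMD1 is unknown.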
